A study of Glycine max with 16 samples.

Results

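LEC1-bound chromatin of soybean embryos was compared between mid-maturation (MM) and early maturation (EM). The MM list of LEC1 peaks held 64146 regions and the EM list 55140, together 119286 of the 220697 peaks in the 4 lists of the series. Members of the comparison are all peaks of these lists, and a peak was called shared when a peak of the other stage overlapped it by at least 1 bp. Both lists come from chromatin immunoprecipitation and sequencing (ChIP-seq) of embryos of the cultivar Williams 82 with an antibody against recombinant GmLEC1. MM embryos were dissected from seeds of 200 to 250 mg, and EM embryos from seeds of 6 to 7 mm in length. Each list stands for 2 ChIP libraries and 2 input libraries of total chromatin. The other lists, from cotyledon-stage embryos (COT, same antibody) and from EM embryos with an antibody against a GmLEC1 peptide, served only as checks.

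LEC1 (LEAFY COTYLEDON1) is the seed-specific B subunit of nuclear factor Y, a trimeric transcription factor whose A subunit recognises CCAAT motifs. It is best known from Arabidopsis as a master regulator of embryo development, needed for embryonic identity, for the filling of the seed with storage protein and oil, and for tolerance of drying. Early and mid-maturation are stages of seed filling, in which the cotyledon cells enlarge and storage reserves accumulate.

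With 1 list per stage, the variation among replicates could not be measured and the stages could not be tested against each other. Counts and shares describe these 2 lists. The depth of the libraries is unknown, and a longer list or a wider peak is not a measure of more LEC1 on chromatin. In bulk embryo chromatin, binding in fewer cells and weaker binding per cell cannot be told apart. Scores are the authors' own, and were used to order peaks within a list. Peaks are written by chromosome and position in the Gmax275 build, since the lists name no genes.

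Most LEC1 sites were present at both stages. At MM, 47791 peaks (74.5%) were overlapped by an EM peak and 16355 were MM-only, which is 25.5% of the list. At EM, 47897 peaks (86.9%) were overlapped by an MM peak and 7243 were EM-only, which is 13.1%. The MM list had 9006 more peaks than the EM list, and 9112 more stage-only peaks. Counted in bases, 16.1 Mb lay in peaks of both lists, 69.9% of the 23 Mb covered at MM and 83.6% of the 19.2 Mb covered at EM. Of the 6.93 Mb covered only at MM, 3.53 Mb lay in MM-only peaks and 3.4 Mb in extensions of shared sites. Of the 3.16 Mb covered only at EM, 1.3 Mb lay in EM-only peaks and 1.86 Mb in parts of shared sites. Sequence covered only at MM was thus split almost evenly between MM-only sites and shared sites. Few peaks lay at the edge of the rule: 672 shared MM peaks and 700 shared EM peaks overlapped by 50 bp and no more, whereas 218 MM-only and 231 EM-only peaks touched a peak of the other list without overlapping it.

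Stage-only sites were the weak and narrow members of their lists. In the highest-scoring 10% of each list, 8 of 6414 MM peaks (0.125%) were MM-only and 0 of 5514 EM peaks were EM-only. In the lowest-scoring 10% the shares were 65.3% at MM and 41.3% at EM. With the peaks of each list put in 10 score classes of equal size (deciles), the share grew from each class to the next at both stages. The median MM-only peak was 200 bp wide and the median shared MM peak 400 bp. The median EM-only peak was 150 bp wide and the median shared EM peak 350 bp. All widths are multiples of 50 bp and the smallest is 100 bp, and 17.4% of MM-only and 28.8% of EM-only peaks had that smallest width. Peaks of 500 bp or more numbered 251 among the MM-only sites (1.53%) and 43 among the EM-only sites (0.594%). The shares were 28.8% of shared MM and 24.7% of shared EM peaks. The upper part of the score range was not empty of stage-only sites, however. In the higher-scoring 50% of their own list stood 1729 MM-only peaks (10.6%) and 331 EM-only peaks (4.57%). Of shared peaks, 63.5% at MM and 56.9% at EM stood there.

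The excess of MM-only over EM-only sites depended on the length of the lists. With the MM list cut to its 55140 highest-scoring peaks, 10604 MM peaks (19.2%) had no EM peak and 10379 EM peaks (18.8%) had no MM peak. The cut removed 9006 MM peaks, of which 5751 were MM-only and 3255 were shared with EM, and left a further 3136 EM peaks without a partner. On the lists as deposited the MM-only share exceeded the EM-only share on 20 of 20 chromosomes, and at equal length on 11 of 20. Each chromosome had more MM than EM peaks, at ratios of 1.12 to 1.20, and nearly all matches were 1-to-1. The 20 of 20 thus follows from list length and is not a repeated observation. With both lists shortened further the shares stayed close to each other, at 20% and 20% for the 40000 highest-scoring peaks, 23.9% and 24.1% for 20000, and 39.9% and 39.9% for 5000 (MM and EM). Shortening both lists also removes the weaker partners of strong peaks, so the shares at small numbers include sites present in both deposited lists.

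A small difference was seen among strong sites when the strongest peaks of one stage were looked up among 55140 peaks of the other. Among the top 20000 MM peaks by score, 304 (1.52%) lacked an EM peak. Among the top 20000 EM peaks, 154 (0.77%) lacked a peak in the MM list of equal length. More of these sites were from MM on 18 of 20 chromosomes and more were from EM on 1, with 7 to 23 MM sites and 2 to 19 EM sites per chromosome. Among the 10000 highest-scoring peaks the counts were 24 at MM and 3 at EM, among 30000 they were 1338 and 1037, and among 50000 they were 7776 and 7641. The count was thus higher at MM at each of these lengths, and the ratio shrank as weaker sites were added. Over all 55140 peaks the counts were 10604 and 10379, which nearly 1-to-1 matching keeps close. The ratio therefore had to approach 1, and its fall is not a trait of the weaker sites.

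**Figure D1:**
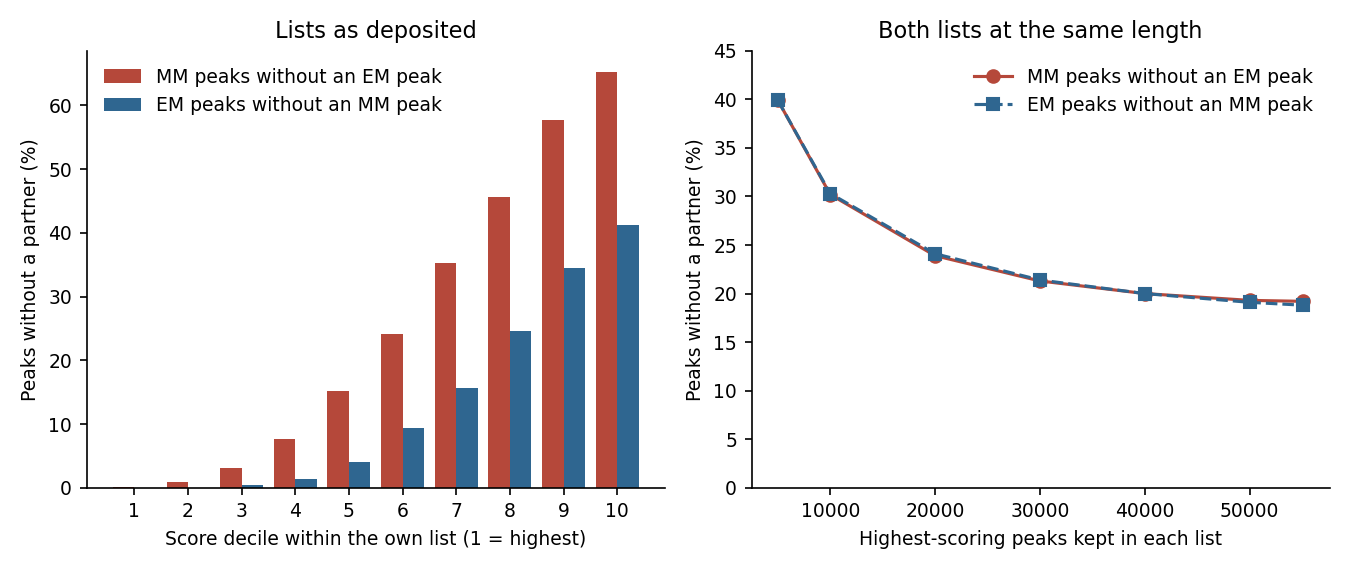
Left, percent of MM peaks without an EM peak and of EM peaks without an MM peak in each of 10 score classes (deciles) of the own list, strongest first, with the lists as deposited; right, the same percent when both lists are cut to the same number of highest-scoring peaks. On the left MM is higher in each class and reaches 65.3%, against 41.3% for EM; on the right the lines lie on each other, from 39.9% at 5000 peaks to 19.2% for MM and 18.8% for EM at 55140.

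The 8 highest-scoring MM-only sites lay on chromosomes 2, 3, 5, 6, 8 and 9. The first was a peak of 500 bp on chromosome 3 at positions 3196951 to 3197450, in place 1214 of the MM list. The nearest EM peak was 18850 bp away, and neither the COT nor the EM anti-peptide list had a peak there. The second, also on chromosome 3 at 5048401 to 5048950 and in place 2353, was 1100 bp from the nearest EM peak and overlapped an EM anti-peptide peak of 200 bp in place 39856. The third MM-only site by score was in place 5352, on chromosome 8 at 45691201 to 45691800. Among the 8 sites, 6 overlapped a peak of the EM anti-peptide list and 3 a COT peak. The EM anti-peptide peaks over them were in places 22928 to 43764 of that list. The sites without either were the first one and a 500 bp peak on chromosome 2 at 42233251 to 42233750, in place 5850 and 4200 bp from the nearest EM peak.

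The 8 highest-scoring EM-only sites were found with the MM list as deposited, and with the MM list cut to equal length there were already 1 such site among the 5000 and 3 among the 10000 highest-scoring EM peaks. The first with the list as deposited was a 500 bp peak on chromosome 19 at positions 3870651 to 3871150, in place 10980, and the eighth was in place 13646. The second, on chromosome 15 at 8267801 to 8268100, lay 50 bp from an MM peak. The fifth, on chromosome 13 at 2536351 to 2536750, lay 200 bp from an MM peak and had no COT or anti-peptide peak. The fourth, on chromosome 7 at 6704351 to 6704750, was the most remote of the 8, at 10850 bp from the nearest MM peak. It was overlapped at COT by a peak of 250 bp and not by the anti-peptide list. Of the 8 sites, 6 had an anti-peptide peak and 6 a COT peak. These sites fell in score classes 2 and 3 of the EM list. Shared EM peaks of these classes had an anti-peptide peak in 96.4 and 93% of cases and a COT peak in 94.1 and 89%. A site on chromosome 4 at 47658201 to 47658700, 2150 bp from the nearest MM peak, overlapped a COT peak of 550 bp in place 5673 and an anti-peptide peak of 550 bp in place 27054.

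The check lists showed how many stage-only sites were called elsewhere. Of the MM-only peaks, 4493 (27.5%) overlapped a peak that the anti-peptide antibody gave at EM, and 4390 (26.8%) a COT peak. Of the EM-only peaks, 1925 (26.6%) overlapped an anti-peptide peak of the same stage and 2740 (37.8%) a COT peak. For shared peaks these shares were 81.5 and 75.6% at MM, and 81.2 and 75.1% at EM. Sites absent from the EM list were thus called at EM by the other antibody about as often as sites that the EM list holds and the MM list lacks. No peak in either check list was found for 9624 MM-only peaks (58.8%) and 3626 EM-only peaks (50.1%).

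EM-only sites were called at COT more often than MM-only sites, and this was so within score classes 3 to 10 of each list, which hold equal percentages of the lists and not equal places. In score class 4 of 10, with class 1 the strongest, a COT peak overlapped 32.2% of MM-only and 64.9% of EM-only peaks. In class 7 it overlapped 27.7% of MM-only and 45.5% of EM-only peaks, and in class 10 it overlapped 22% of MM-only and 29.6% of EM-only peaks. With the anti-peptide list the same classes gave 46.2 and 50.6%, 31.7 and 32.3%, and 18.6 and 20.5% (MM-only and EM-only). The COT share was higher for EM-only sites on 20 of 20 chromosomes, ranging over chromosomes from 22.7 to 28.9% for MM-only and from 33.1 to 44% for EM-only sites. At equal list length it was 28.9% for MM-only and 42.5% for EM-only sites, again higher for EM-only on 20 of 20. The anti-peptide share was lower for EM-only than for MM-only sites on 12 of 20 chromosomes, and at equal list length it was 32.2% for MM-only and 33.4% for EM-only sites. In classes 3 to 10, shared peaks were overlapped more often than stage-only peaks of the same class and stage, in both check lists.

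**Figure D2:**
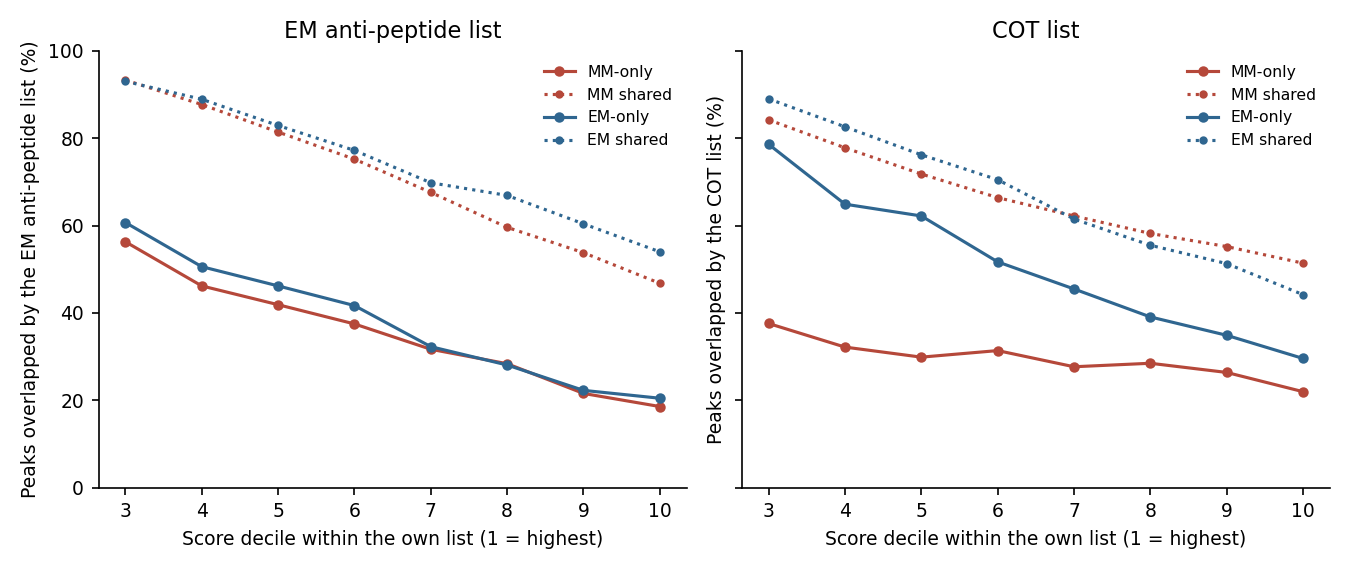
Percent of stage-only peaks (solid lines) and shared peaks (dotted lines) of the MM and EM lists that are overlapped by the EM anti-peptide list (left) or the COT list (right), by score class (decile) of the own list, strongest first; classes 1 and 2 are left out, since they hold 0 and 1 EM-only peaks. MM-only and EM-only sites run close together on the left, whereas on the right EM-only sites lie above MM-only sites, with MM-only at 32.2% and EM-only at 64.9% in class 4.

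Shared sites tended to be wider at MM. In 46296 cases 1 MM peak overlapped 1 EM peak and neither overlapped another. The MM peak was wider by 100 bp or more in 14528 of these pairs (31.4%), narrower by 100 bp or more in 6505 (14.1%), and within 50 bp in 25263 (54.6%). The mean difference, MM minus EM, was 32.1 bp and the median 50 bp, the smallest step of width in the lists. Differences of 200 bp or more were found in 4162 wider and 1300 narrower pairs, and of 500 bp or more in 130 and 28. More pairs were wider than narrower on 20 of 20 chromosomes, with 28.7 to 34.5% wider and 12.6 to 15.1% narrower. At equal list length the percentages were 33.2% wider and 12.1% narrower. Cutting a list by score does not change the width of the peaks that stay, so this alternative does not correct for a difference in depth or threshold between the lists.

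Wider pairs were mostly extended on both flanks. In 61.0% of them the MM peak reached beyond both ends of the EM peak, and in 92.7% it contained the EM peak whole. The mean extension was 80.2 bp at the end with the lower position and 78.4 bp at the other. Narrower pairs were the mirror image: in 62.0% the MM peak lay inside both ends of the EM peak, with mean extensions of -70.9 and -72.4 bp, that is, retractions. Midpoints moved by 100 bp or more in 14.8% of wider, 12.1% of narrower and 2.72% of the remaining pairs.

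Wider pairs exceeded narrower ones in each class of peak size. Among pairs whose mean width over both stages was at least 100 and below 200 bp, 24.6% were wider and 12.1% narrower. The largest share of wider pairs, 40%, was found from 200 to below 300 bp, with 14% narrower. From 500 to below 600 bp the shares were 26.5 and 15.9%, and from 800 bp on they were 30.8 and 15.4%. Peaks in the same place of the score order were wider at MM as well. The 10000 highest-scoring peaks averaged 591 bp at MM and 564 bp at EM, and those in places 40001 to 50000 averaged 263 bp at MM and 194 bp at EM.

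Width and place moved together. Among pairs present at equal list length, 76.5% of wider pairs took a higher place in the MM list than in the EM list, against 16.9% of narrower pairs and 39% of pairs within 50 bp. Width falls with score class in both lists, with medians of 550 bp in class 1 and 100 bp in class 10 at MM and at EM, so place is not an independent readout of the change in width.

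The anti-peptide list gives a second width at EM for 36560 sites that were 1-to-1 in all 3 lists. At sites wider at MM, the mean width was 474 bp at MM, 317 bp at EM and 378 bp with the anti-peptide antibody. At sites narrower at MM it was 356 bp at MM, 497 bp at EM and 379 bp with the anti-peptide antibody. At the remaining sites it was 426 bp at MM, 422 bp at EM and 385 bp with the anti-peptide antibody. The anti-peptide widths of the 3 classes thus differed little, while the MM and EM widths had defined the classes. Anti-peptide widths were nearer to the EM width than to the MM width at 49.1% of the wider sites, against 37.1% nearer to MM. At narrower sites the order was the opposite, with 62.1% nearer to MM and 26.4% nearer to EM. Over all its 1-to-1 pairs with the EM list, the anti-peptide list had 21.2% wider and 29.9% narrower peaks. Pairs of the same stage and different antibodies were within 50 bp in 48.9% of cases, fewer than the 54.6% of MM and EM pairs. Differences of width were thus seen between antibodies at 1 stage as well as between stages. The COT shares that follow are over all 46296 pairs of MM and EM. Sites wider at MM had a COT peak in 67.9% of cases, narrower sites in 80.4% and the remaining sites in 78.4%. The median EM widths of these classes were 250, 450 and 400 bp, and COT shares at matched width were not computed.

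**Figure D3:**
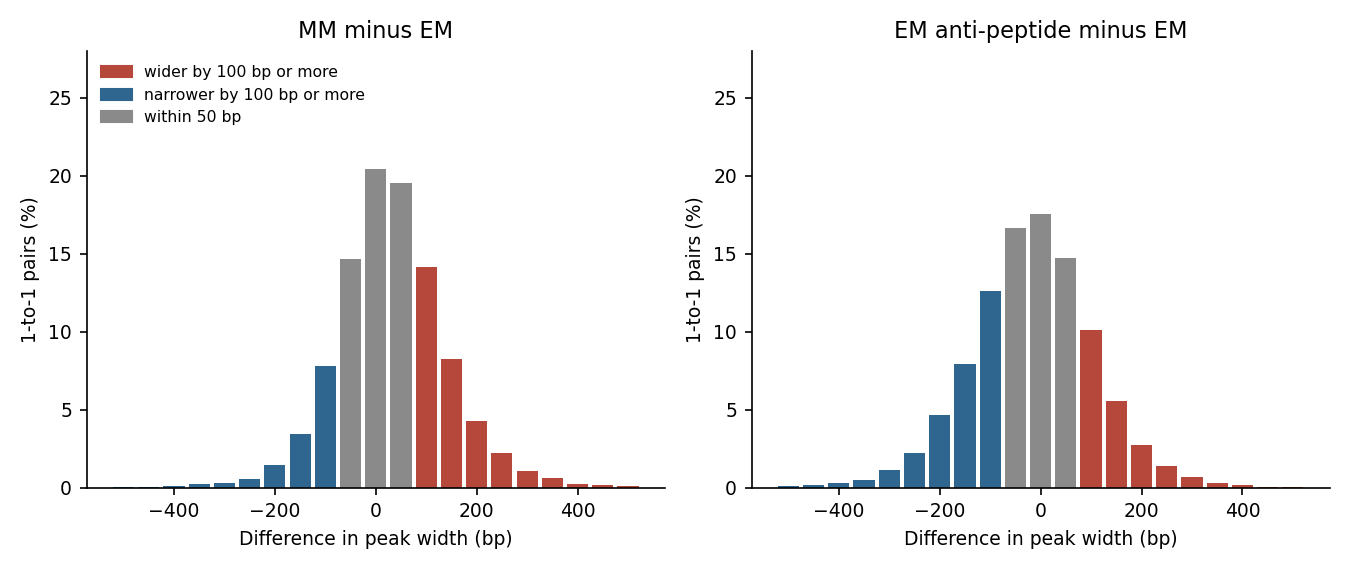
Percent of 1-to-1 pairs by difference in peak width in steps of 50 bp, from -500 to 500 bp, for MM minus EM (left) and EM anti-peptide minus EM (right). For MM minus EM, 31.4% are wider and 14.1% narrower by 100 bp or more; for the anti-peptide list, 21.2% are wider and 29.9% narrower.

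The largest gain of width was on chromosome 8, where an MM peak of 1450 bp at positions 46155101 to 46156550 stood over an EM peak of 350 bp at 46156051 to 46156400. The MM peak was in place 1879 and the EM peak in place 25106. The second, on chromosome 16, was 1100 bp at MM (1997251 to 1998350) and 200 bp at EM (1998101 to 1998300). On chromosome 11 a peak of 1300 bp at MM (34261651 to 34262950) and 450 bp at EM was in place 5083 of the MM list and place 2563 of the EM list, so that here the wider peak had the lower place. The same gain of 850 bp was found at MM peaks of chromosome 5 (39082851 to 39084150), chromosome 17 (39357451 to 39358500) and chromosome 20 (170701 to 171700). Each of the 6 MM peaks overlapped 2 anti-peptide peaks and a single EM peak. Such peaks were commoner among the widest gains: 37 of the 130 MM peaks wider by 500 bp or more (28.5%) overlapped 2 or more anti-peptide peaks, against 1.51% of all wider pairs and 0.693% of pairs within 50 bp. The same held for the wide EM peaks of the largest losses, of which 13 of 28 (46.4%) overlapped 2 or more anti-peptide peaks. The share was 1.68% for EM peaks of all narrower pairs and 0.689% for those of pairs within 50 bp. A wider peak has more room to overlap several peaks of any list, and shares at matched width were not computed.

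The largest losses of width had their wide form at EM. On chromosome 4 an MM peak of 150 bp at 7618851 to 7619000 lay within an EM peak of 950 bp at 7618251 to 7619200. On chromosome 12 an MM peak of 150 bp at 37297951 to 37298100 lay within an EM peak of 850 bp. At the chromosome 4 site the COT peak was 350 bp and the anti-peptide peak 200 bp wide, both nearer to the MM width. At the chromosome 12 site the COT and anti-peptide peaks were each 900 bp wide, nearer to the EM width. On chromosome 8 the widths were 650 bp at MM (16940401 to 16941050) and 1350 bp at EM. The COT peak of 850 bp and the anti-peptide peak of 800 bp were both nearer to the MM width. The check peaks given here are those over the MM peak, and any others over the rest of the wider EM peak are not listed. The other MM peaks of this group were on chromosome 10 (48928701 to 48929000) and chromosome 6 (3090851 to 3091250, and 47294701 to 47294800). Their widths were 300, 400 and 100 bp at MM and 950, 1050 and 750 bp at EM. The COT peaks were 700, 500 and 150 bp wide, and the anti-peptide peaks 150, 450 and 750 bp. Within the limit given above, each check list was nearer to the MM width at more of these sites, but not at all of them.

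Joined and split peaks were rare. A single MM peak spanned 2 or more EM peaks in 567 cases, 1.19% of shared MM peaks, and a single EM peak spanned 2 or more MM peaks in 468 cases, 0.977% of shared EM peaks. The median joining MM peak was 800 bp wide, and the median MM peak with 1 partner 400 bp. Gaps bridged at MM had a median of 150 bp, and 43.8% were of 100 bp or less. Gaps bridged at EM had a median of 100 bp, and 52.1% were of 100 bp or less. At most 3 peaks were spanned, in 11 MM peaks and 4 EM peaks. The highest-scoring of the 11 MM peaks lay on chromosome 8 at 39176051 to 39177400, over EM peaks of 400, 250 and 150 bp. It was followed by MM peaks on chromosome 17 (14691401 to 14692700) and chromosome 14 (47914051 to 47915700). The highest-scoring of the 4 EM peaks lay on chromosome 4 at 4480701 to 4482500, with MM peaks of 450, 450 and 500 bp inside it. It was also found as 3 peaks at COT and 3 in the anti-peptide list. EM peaks on chromosome 16 (25636501 to 25637850) and chromosome 8 (7127351 to 7128650) came next. Of the joining MM peaks, 26.6% overlapped 2 or more anti-peptide peaks and 68.6% overlapped 1; of the split EM peaks, 47.4% overlapped 2 or more and 50.2% overlapped 1.

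Few stage-only sites lay directly beside a peak of the other stage, and MM-only sites lay farther from it than EM-only sites. The median gap from an MM-only peak to the nearest EM peak was 2500 bp, and from an EM-only peak to the nearest MM peak 1500 bp. Within 100 bp of a peak of the other stage lay 513 MM-only peaks (3.14%) and 494 EM-only peaks (6.82%). Within 1 kb lay 28.3% of MM-only and 39.3% of EM-only peaks, and beyond 10 kb lay 2649 MM-only peaks (16.2%) and 608 EM-only peaks (8.39%). A longer list leaves shorter distances to its peaks, and at equal list length the medians were 2650 bp for MM-only and 1950 bp for EM-only peaks. At that length 27.0% of MM-only and 33.1% of EM-only sites lay within 1 kb, so EM-only sites were again the nearer ones.

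Peaks of the MM list lay closer to each other than those of the EM list, and this order turned with list length. The share of peaks with another peak of the same list within 1 kb was 35.0% at MM and 32.8% at EM, higher at MM on 19 of 20 chromosomes. The exception was chromosome 16, with 33.0% at MM and 33.4% at EM. With the MM list cut to 55140 peaks the share was 30.9% at MM, against 32.8% at EM, and it was lower at MM on 18 of 20 chromosomes. The direction of the difference in spacing thus depended on list length. MM-only peaks had an MM neighbour within 1 kb in 32.8% of cases, below the 35.7% of shared MM peaks. EM-only peaks had an EM neighbour in 35.7% of cases, above the 32.3% of shared EM peaks.

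Neighbours at MM were in large part the same at EM. Of 12622 pairs of adjacent MM peaks within 1 kb, 55.5% were also a pair of separate peaks at EM and 3.74% fell within a single EM peak. In 34.0% of pairs 1 of the peaks was MM-only, and in 6.73% both were. Of 10083 pairs of adjacent EM peaks, 67.9% were separate peaks at MM, 5.72% fell within a single MM peak, 23.9% had 1 EM-only peak and 2.46% had both peaks EM-only. Runs of 3 or more peaks with gaps of up to 1 kb numbered 2089 at MM and 1607 at EM, and runs of 5 or more numbered 139 and 86. At equal list length there were 1440 and 76 at MM, below the numbers at EM. The longest run had 8 peaks at MM and 9 at EM.

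Each of the 3 longest MM runs had 8 peaks. On chromosome 1, positions 55139251 to 55146800 held 8 MM and 6 EM peaks, with 2 of the MM peaks MM-only, 7 anti-peptide peaks and 6 COT peaks. On chromosome 8, positions 2776501 to 2781950 held 8 MM and 6 EM peaks, with 1 MM-only. On chromosome 20, positions 1287201 to 1292550 held 8 MM and 5 EM peaks, with 2 MM-only. On chromosome 1 the number of shared MM peaks thus equalled that of EM peaks, and the surplus was made up of MM-only peaks; in the other runs there was also 1 more shared MM peak than EM peaks.

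**Figure D4:**
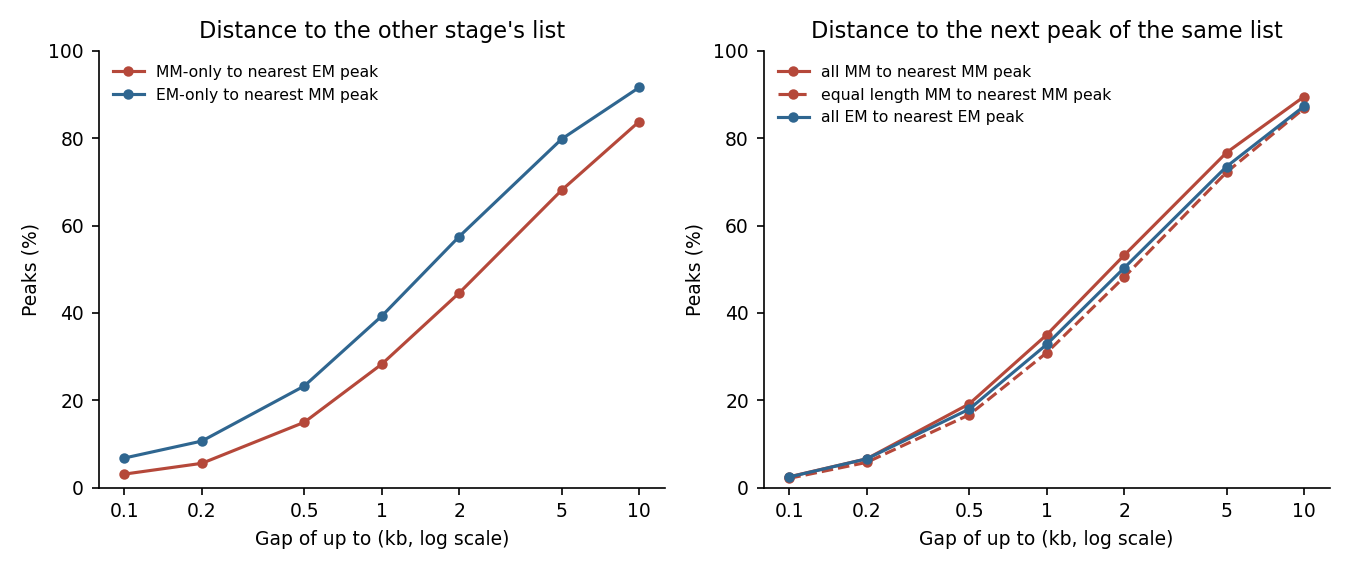
Cumulative percent of peaks by gap, on a log scale, to the nearest peak of the other stage's list (left, stage-only peaks) and to the next peak of the same list (right, all peaks). On the left 28.3% of MM-only and 39.3% of EM-only peaks lie within 1 kb; on the right MM lies above EM at 1 kb with the deposited list (35.0 against 32.8%) and below it at equal length (30.9%).

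Stage-only and shared sites had nearly the same position along the chromosomes. The outer 20% at either chromosome end held 66.9% of MM-only and 68.7% of shared MM peaks, and 69.2% of EM-only and 68.7% of shared EM peaks. The middle of the chromosomes, at 25 to 75% of their length, held 23.1% of MM-only peaks, against 21.5% of shared MM peaks, and 20.6% of EM-only peaks, against 21.5% of shared EM peaks. MM-only sites were more central than shared ones on 17 of 20 chromosomes, and EM-only sites less central on 15 of 20. At equal list length the centre held 23.2% of MM-only and 20.9% of EM-only peaks. The difference between the stage-only classes was small beside that between chromosomes, on which the centre held 11.2% (chromosome 4) to 55.8% (chromosome 13) of MM-only peaks. In steps of 5% of the chromosome length, the MM-only share of MM peaks ran from 24.7 to 28.3%, with its highest value at 35 to 40% from the nearer end. The EM-only share of EM peaks ran from 11.8%, at 25 to 30% from the end, to 13.8%, at 5 to 10%. Wider pairs made up 29.3 to 32.5% of pairs in these steps and narrower pairs 12.8 to 14.7%.

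**Figure D5:**
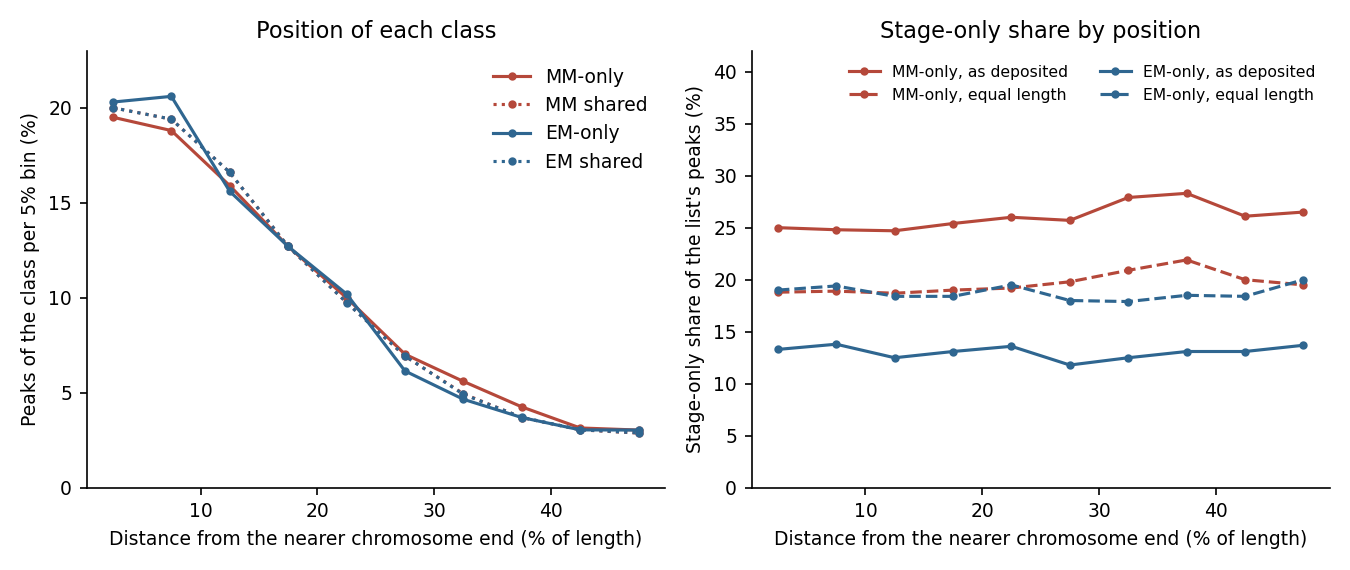
Left, percent of the peaks of each class in steps of 5% of the chromosome length, from the nearer end to the middle; right, stage-only share of the peaks of the list in each step, with the lists as deposited (solid) and at equal length (dashed). The 4 classes on the left fall together, with 19.5 to 20.3% in the first step and 2.88 to 3.04% in the last; on the right the MM-only share as deposited lies between 24.7 and 28.3%, and both stages lie between 17.9 and 21.9% at equal length.

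All chromosomes had more peaks at MM than at EM, with ratios from 1.12 on chromosome 7 to 1.20 on chromosome 19. The MM-only share ranged from 23.9% (chromosome 12) to 27.9% (chromosome 19), and the EM-only share from 11.7% (chromosome 11) to 15.2% (chromosome 7). Chromosome 7 thus had the smallest ratio of MM-only to EM-only sites, 1.77, and chromosome 20 the largest, 2.60. Peak numbers were higher at MM in 848 of 951 windows of 1 Mb, lower in 39 and equal in 64. In the 419 windows with at least 50 peaks in each list, the MM-only share had a median of 25% and a range of 13.7 to 36.6%, and the EM-only share a median of 13.2% and a range of 3.41 to 24.1%.

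Most MM-only peaks in a single window, 58, were found on chromosome 19 at 47000001 to 48000000, where 180 MM and 145 EM peaks were called. Windows with 55 each followed on chromosome 10 (49000001 to 50000000) and chromosome 11 (2000001 to 3000000). The neighbouring window on chromosome 11, at 3000001 to 4000000, had 45 MM-only peaks and the most EM-only peaks of any window, 35. Next came a window on chromosome 8 (7000001 to 8000000) with 27 MM-only and 34 EM-only peaks, and one on chromosome 5 (40000001 to 41000000) with 32 MM-only and 31 EM-only peaks. The window on chromosome 8 was among the few with fewer MM than EM peaks, 160 and 166. Windows chosen for a high count are a description of where stage-only sites were many, and no window was tested against the rest.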

How the data were processed

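The deposited files are peak lists, 1 per stage and antibody, with a position and a score for each peak. The score was computed by the authors. Not given in the sources used here were its scale, the peak caller and its threshold, any pooling of replicates, and the depth of the 16 libraries. The submitters' processing notes list Bowtie (version 0.12.7) and SAMtools (version 0.1.19). Per the labels' protocols, tissue was fixed for 10 minutes in 1% formaldehyde, chromatin was sonicated to between 100 and 500 bp and precipitated with 3 ug of antibody, and libraries were amplified over 15 PCR cycles.

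Counting the end position as part of the peak makes every width a multiple of 50 bp, so 1 bp was added to each end before overlaps and gaps were taken. Positions are printed 1-based in Gmax275, the build that the labels name; no genes or sequences were assigned, because the reference tables used here are for a different assembly. Overlap, width, spacing and position were computed with Python 3.11.15, NumPy 2.4.6 and pandas 2.3.3, and the functions were tested on simulated lists with planted answers. Chromosome length was taken as the last peak end over the 4 lists. Place is the rank of a peak by score within its list. Members, definitions and site rules were chosen with earlier results of these data known. Sites named are the 8 highest-scoring MM-only and EM-only peaks, the 6 largest gains and losses of width, and the 3 leading joined peaks, split peaks, runs and windows. No p-values were computed, and no chance level was set for any overlap. Alternatives were equal list length, stronger peaks only, other overlap rules, other width, gap and centre limits, and the COT list as the check.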

Additional observations from a re-analysis of the deposited data

How the results depend on the processing

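The MM-only share exceeded the EM-only share in 10 of the 11 settings that recompute it, the reported one included, the exception being the 20000 highest-scoring peaks of each list. Most of these settings keep the MM list the longer one, so they carry the difference in list length. Where the lists were equally long, the shares were close, at 19.2 and 18.8% for 55140 peaks and 23.9 and 24.1% for 20000. Nearly 1-to-1 matching makes them close at any equal length. More pairs were wider than narrower in 14 of the 14 settings that recompute the pairs. Values are given as MM-only and EM-only, or MM and EM. At equal list length 10604 peaks were MM-only (10572 when ordered by the authors' peak numbers, an alternative chosen after seeing the data). MM neighbour shares were then 30.9% (30.9%), and anti-peptide shares 32.2 and 33.4% (32.3 and 33.1%). In the higher-scoring 50% there were 8825 and 4370 stage-only peaks, 5755 wider and 2758 narrower pairs, 84 joined and 131 split peaks, neighbour shares of 19.7 and 17.8% and anti-peptide shares of 74.4 and 72.2%. The 20000 highest-scoring gave 4786 and 4811, 3675 and 1710, 39 and 63, 12.9 and 13.3%, and 88.9 and 86.6%. These settings leave fewer peaks. Cutting both lists also removes weaker partners, so the stage-only peaks and their anti-peptide shares here include many sites present in both deposited lists. Of the 20000 highest-scoring MM peaks, 304 lacked any peak of the deposited EM list. In both settings split peaks outnumbered joined ones, the reverse of the reported order, and the cause was not tested. Reciprocal overlap of 50% left 12430 EM-only peaks, an anti-peptide share of 24.9% for them, and by construction 0 joined and 0 split. Gaps of up to 100 bp gave 1211 joined and 1133 split, and 28.1% for EM-only. Midpoints within 100 bp gave 4 and 0, and anti-peptide shares of 31.0 and 28.6%. Reading the end as the first base after the peak gave neighbour shares of 33.7 and 31.6%. Peaks of at least 200 bp gave 332 joined and 362 split, again the reverse order, neighbour shares of 31.0 and 28.1% and anti-peptide shares of 41.7 and 42.4%. Here too, partners below 200 bp were removed from both lists. Wider and narrower pairs numbered 23560 and 13280 from 50 bp, 4162 and 1300 from 200 bp, and 8802 and 3380 from a ratio of 1.5. Neighbours within 500 bp were 19.2 and 18.0%, and within 2 kb 53.2 and 50.3%. The centre from 40 to 60% held 6.19 and 6.09%. With the COT list as the check the EM-only share was 37.8%. The other 69 of 128 values moved by less than 1.5 times (counts) or stayed within the exact 95% binomial interval of the reported share, which covers counting error only. No paired analysis was possible because the lists hold no values per replicate, and for the same reason no replicate could be left out. Motif shares were not run, for lack of the sequence of this build. Stage and experiment cannot be told apart, and depth was not given.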

Other observations

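Unplaced scaffolds held 95 MM-only and 35 EM-only peaks, 0.581% of the MM-only and 0.483% of the EM-only sites, against 0.498% of shared MM and 0.503% of shared EM peaks. With the lists as deposited, the MM-only share was the higher one in 414 of the 419 windows of 1 Mb with at least 50 peaks in each list. The EM-only share was the higher one in 5. Both counts carry the difference in list length. The highest MM-only share of such a window was 36.6%, on chromosome 10 at positions 42000001 to 43000000 with 41 of 112 MM peaks, where 15 of 86 EM peaks were EM-only. In the first 1 Mb of chromosome 20, 27 of 87 MM peaks were MM-only and 19 of 79 EM peaks were EM-only, the highest EM-only share (24.1%). The lowest MM-only share was 13.7%, on chromosome 6 at 47000001 to 48000000. These windows were chosen after their values were seen.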
